A study of Homo sapiens with 9 samples.

Results

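B lymphocytes, their antigen receptor and the chemokines that gather lymphocytes in lymph nodes were followed through 9 genes in mouse anaplastic thyroid cancer (ATC). The genes were listed by symbol, with earlier results of these data known: Ms4a1, Cd79a, Cd79b, Mzb1 and Cr2 of B cells, and Ccl19, Cxcl13, Ccr7 and Ltb of lymphoid tissue. Of the 9 genes, 8 had a row among the 17369 genes of the expression table, and 3 of them (Cxcl13, Ccr7 and Ltb) reached 1 FPKM in at least 3 tumors and entered the test across all genes. Mzb1, a chaperone of B and plasma cells, was not analysed here. FPKM divide the fragments of a gene by the length of its transcript and by the size of the library, so levels can be compared between genes.

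The tumors grew from TBP3743, a single murine ATC cell line with a thyroid-specific mutant Braf and deleted Trp53, and 100000 cells were placed in the thyroid of 6-week-old female mice and left for 14 days. Original TBP3743 cells in B6129SF1 mice formed the group the labels call SFOG. Adapted cells, taken from passage round 3 through C57BL/6 mice, were implanted in B6129SF1 mice (SFSC) or C57BL/6 mice (B6SC). B6SC thus differs from SFOG in both the cells and the host strain, which cannot be told apart in that comparison. RNA came from whole tumors, 3 per group, labelled as biological replicates, and the labels call the cell type cancer epithelial although the immune and stromal cells of the tumor are included. The p-values below therefore measure the spread between these tumors, and in bulk RNA fewer cells of a type cannot be told apart from less RNA per cell. The depth of the 9 libraries, read from the smallest steps between weak values, ranged from 0.961 to 1.35 relative to SFOG replicate 1. Skeletal muscle genes took 7.17% of FPKM in SFSC replicate 3 and 1.39% in B6SC replicate 1, against at most 0.163% elsewhere.

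B cells recognize antigen through a membrane immunoglobulin that signals by way of the CD79A and CD79B chains. In lymph nodes, stromal cells make CXCL13, which calls B cells into follicles, while CCL19 and CCL21 call T cells and dendritic cells that carry the receptor CCR7. Lymphotoxin, made by lymphocytes and built in part from the LTB chain, acts on that stroma, keeps the chemokines expressed and maintains follicles and high endothelial venules (HEVs), the vessels by which lymphocytes enter. Lymph node tissue in a tumor would therefore hold B cell genes, these chemokines and HEV genes together, and the question was whether the chemokines followed the B cell genes from tumor to tumor.

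B cell genes were weak in every tumor, and Ms4a1 and Cd79b lay higher in all B6SC tumors than in all SFOG tumors. Cd79b, a signaling chain of the B cell receptor, stood at 0.0871, 0.324 and 0.204 FPKM in SFOG replicates 1, 2 and 3, at 0.199, 0.664 and 0.976 in the SFSC tumors and at 0.780, 0.663 and 0.641 in the B6SC tumors. All 3 B6SC tumors lay above all 3 SFOG tumors, and SFSC replicate 1 lay among the SFOG tumors. The means were 0.205 ± 0.118, 0.613 ± 0.391 and 0.695 ± 0.0744 FPKM (SD, n = 3). An exact permutation test, two-sided, of log2(FPKM + 1) gave p = 0.1 for B6SC against SFOG, the smallest p that 3 tumors against 3 can give, p = 0.3 for SFSC against SFOG and p = 0.9 between the adapted groups.

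Cd79a, the partner chain, was measured at 0.0767, 0.127 and 0.0361 FPKM in the SFOG group, 0.106, 0.0560 and 0.288 in SFSC and 0.431, 0.235 and 0.126 in B6SC. Its groups overlapped in all 3 comparisons (exact permutation test, two-sided, p = 0.6 for SFSC and 0.2 for B6SC against SFOG, and 0.4 between the adapted groups). The 2 chains did not keep one ratio: Cd79b exceeded Cd79a in 9 of 9 tumors, by 1.13 to 11.9 times. For such low values the ratio carries a large counting error.

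Ms4a1 encodes CD20, a surface protein of mature B cells. It was listed at 0, 0 and 0.0218 FPKM in the SFOG tumors, at 0, 0.0848 and 0.0871 in the SFSC tumors and at 0.121, 0.0712 and 0.133 in the B6SC tumors. The 3 B6SC tumors were above all SFOG tumors (exact permutation test, two-sided, p = 0.1) and overlapped the SFSC tumors (p = 0.3), which in turn overlapped the SFOG tumors (p = 0.4). A value of 0 at this depth still allowed up to 0.0685 FPKM in SFOG replicate 1 (3 fragments). The level in B6SC replicate 2 was only slightly above that limit.

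Because weak FPKM values rise in even steps, the number of fragments behind them could be read with each step taken as 1 fragment. Ms4a1 rested on 1 fragment over the SFOG group, 9 over SFSC and 17 over B6SC. Per unit of depth the B6SC level was 15.9 times the SFOG level, with a 95% exact interval of 2.49 to 663 that covers counting error only. Cd79a rested on 7, 13 and 25 fragments, and its B6SC level was 3.33 times the SFOG level (1.40 to 9.13). Cd79b rested on 16, 50 and 57 fragments, and the same ratio was 3.33 (1.88 to 6.20). In SFSC the Cd79b ratio to SFOG was 2.93 (1.64 to 5.51), with SFSC replicate 1 holding 5 of the 50 fragments. These intervals leave out the variation between tumors.

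Cr2, complement receptor 2 of mature B cells and follicular dendritic cells, did not share that order. It was measured at 0.0699, 0.0407 and 0.0404 FPKM in SFOG, 0.0525, 0.0314 and 0.0335 in SFSC and 0.0481, 0.0366 and 0.0819 in B6SC. All groups overlapped, with exact permutation p = 0.5 and p = 0.7 for SFSC and B6SC against SFOG and p = 0.4 between the adapted groups, two-sided. The follicular gene thus stayed under 0.1 FPKM in every tumor, also where Cxcl13 was above 10 FPKM.

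**Figure D1:**
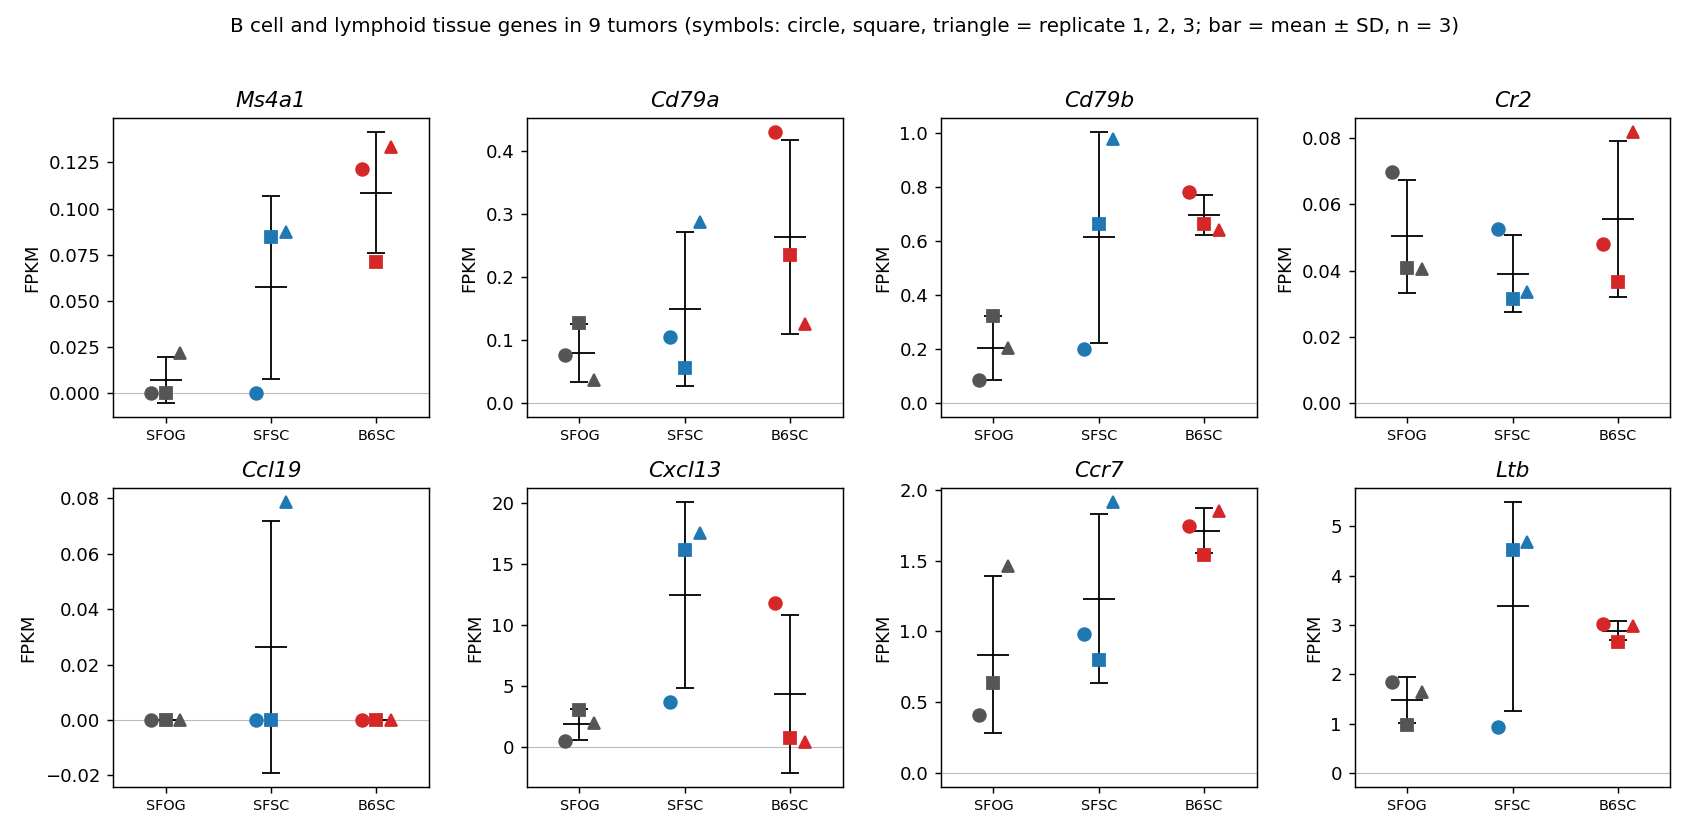
FPKM of the 8 genes with a row in each tumor, by group, 1 panel per gene with its own linear axis; symbols are single tumors and bars the mean ± SD (n = 3). The 3 B6SC tumors lie above all SFOG tumors for Ms4a1, Cd79b, Ccr7 and Ltb, and the SFSC tumors do so for Cxcl13.

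Other genes of the B cell surface gave the same low levels. Of 14 such genes with a row, 11, the 4 described above among them, were under 1 FPKM in every tumor. Pax5, the B cell transcription factor, had at most 2 fragments in any tumor. The 3 other surface and signaling genes, Cd72, Cd37 and Blnk, which are also genes of other leukocytes, were tested and 0 were called in any comparison by limma. In each adapted group against SFOG, 1 of 3 had an unadjusted p under 0.05 (26.5% and 24.4% of all genes tested). Between the adapted groups 0 of the 3 did. Cd72 was the highest of them, at 7.18 to 70.7 FPKM.

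The chemokines of lymphoid tissue differed from each other. Cxcl13, the B cell chemokine of follicles, reached 0.543, 3.07 and 2.03 FPKM in the SFOG tumors, 3.68, 16.1 and 17.6 in the SFSC tumors and 11.8, 0.780 and 0.444 in the B6SC tumors. Every SFSC tumor exceeded every SFOG tumor, whereas in B6SC only replicate 1 was high and replicate 3 was the lowest of all 9. The means were 1.88 ± 1.27, 12.5 ± 7.64 and 4.34 ± 6.46 FPKM (SD, n = 3).

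The test of all genes used limma on log2(FPKM + 1) with Benjamini-Hochberg adjustment, and a gene was called where the adjusted p was under 0.05 and the log2 fold change was above 1 or below -1. For Cxcl13 the log2 fold change of SFSC against SFOG was 2.10 (SE 0.86, adjusted p = 0.162), which is 4.28-fold on that scale. For B6SC against SFOG it was 0.26 (SE 0.86, adjusted p = 0.885), and without B6SC replicate 1 it became -0.74. The B6SC mean was lower than the SFSC mean by a log2 fold change of -1.83 (SE 0.86, adjusted p = 0.814). The exact permutation p, two-sided, was 0.1, 0.9 and 0.2 in the same order.

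Ccl19, a ligand of CCR7, was listed at 0 in 8 tumors and at 0.0787 FPKM, taken as 1 fragment, in SFSC replicate 3. With 1 tumor above 0 the size of a step could not be checked. On that reading a 0 allowed up to 0.184 to 0.257 FPKM in these libraries, so it does not exclude a level below that.

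Ccr7, the receptor of naive T cells, B cells and mature dendritic cells, stood at 0.409, 0.638 and 1.46 FPKM in SFOG, 0.981, 0.799 and 1.91 in SFSC and 1.74, 1.54 and 1.85 in B6SC. The B6SC tumors were narrowly spread and all above the SFOG tumors, while the SFSC tumors spanned both. The log2 fold change against SFOG was 0.60 in B6SC (SE 0.25, limma adjusted p = 0.186) and 0.29 in SFSC (SE 0.25, adjusted p = 0.490). Between B6SC and SFSC it was 0.31 (SE 0.25, adjusted p = 0.882).

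Ltb, the membrane chain of lymphotoxin, was measured at 1.85, 0.967 and 1.64 FPKM in SFOG, 0.933, 4.52 and 4.68 in SFSC and 3.01, 2.67 and 2.99 in B6SC. SFSC replicate 1 was the lowest of all 9 tumors, and the other 5 adapted tumors were above every SFOG tumor. The log2 fold change against SFOG was 0.68 in SFSC (SE 0.38, limma adjusted p = 0.291) and 0.66 in B6SC (SE 0.38, adjusted p = 0.326), and the adapted groups differed by -0.02 (SE 0.38, adjusted p = 0.996). Without SFSC replicate 1 the former was 1.19 (SE 0.18, adjusted p = 0.0131), the only setting in which any of the 3 genes was called.

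In each of the 3 comparisons 0 of the 3 tested genes were called by limma, while 3.22% of the 10263 genes tested were called for SFSC and 3.09% for B6SC against SFOG, and 0.0292% between the adapted groups. At an unadjusted p under 0.05 there was 1 of 3 in SFSC (Cxcl13), 1 of 3 in B6SC (Ccr7) and 0 of 3 between the adapted groups, where 26.5%, 24.4% and 6.27% of genes tested were below it. The 2 comparisons with SFOG share its 3 tumors. Groups did not overlap, with the B6SC tumors higher, for Ccr7 and Ltb among the 3 tested genes (14.9% of all genes tested) and for Ms4a1 and Cd79b among the 5 weaker genes (9.56% of the genes below the filter). For SFSC against SFOG this held for Cxcl13 alone (13.6% of genes tested), and for 0 of the 5 weaker genes (9.35%). Between B6SC and SFSC the tumors of all 8 genes overlapped, while B6SC was entirely higher for 6.32% of genes tested and 3.27% of the weaker genes. The median log2 fold change of the 3 tested genes was 0.68 and 0.60 against SFOG, beside -0.03 for all genes tested in both comparisons.

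Whether chemokines followed B cell genes in single tumors was examined in 16 pairs, each of 1 B cell gene and 1 lymphoid gene, over the 9 tumors on log2(FPKM + 1). No pair passed an adjusted p of 0.05 (exact permutation tests, two-sided, Benjamini-Hochberg over the pairs), and 4 pairs had an unadjusted p under 0.05, all with Ccr7 or Ltb. Ms4a1 and Cxcl13 had r = 0.29 (exact permutation p = 0.426, adjusted p = 0.547) and rho = 0.14 (p = 0.737). B6SC replicate 3, highest of the 9 in Ms4a1, was lowest in Cxcl13. The 3 tumors at 0 tie as farthest from the median of Ms4a1, and without 2 of them r was 0.12 to 0.35, depending on the 2 left out.

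For Cd79b and Cxcl13 r was 0.55 (exact permutation p = 0.122, adjusted p = 0.279) and rho 0.62 (p = 0.0857), and r was 0.49 without SFOG replicate 1 and SFSC replicate 1. Taken as deviations from the group means, r was 0.69 (p = 0.00463, the smallest that exact permutation within groups can give, adjusted p = 0.0741), and for Ms4a1 it was 0.55 (p = 0.380). In each of the 3 groups the tumors had the same order in Cd79b as in Cxcl13. In Cd79b, B6SC replicates 2 and 3 differed little (0.663 and 0.641 FPKM). Since that smallest p adjusted over 16 pairs stays above 0.05 for a single pair, the comparison within groups had little room to pass.

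For Cd79a and Cxcl13 r was 0.40 (exact permutation p = 0.298, adjusted p = 0.485) and rho 0.27 (p = 0.493). This relation rested on SFSC replicate 3 and B6SC replicate 1, the tumors with the most muscle RNA, since r was -0.43 without them. Cr2 and Cxcl13 had an inverse r of -0.64 (exact permutation p = 0.0613, adjusted p = 0.196; rho = -0.67, p = 0.0589), and -0.24 without the 2 farthest tumors. The pairs with Ccl19 turn on its 1 tumor above 0.

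The closest pairs of B cell genes were with Ltb and Ccr7. Cd79b and Ltb had r = 0.82 (exact permutation p = 0.00942, adjusted p = 0.108), rho = 0.85 (p = 0.00607), 0.85 without the 2 farthest tumors and 0.73 within groups (p = 0.375). Ms4a1 and Ltb had r = 0.80 (exact permutation p = 0.0135, adjusted p = 0.108), rho = 0.80 (p = 0.0153), 0.65 to 0.75 without 2 of the 3 tumors tied as farthest and 0.84 within groups (p = 0.0648). Ms4a1 and Ccr7 had r = 0.73 (exact permutation p = 0.0296, adjusted p = 0.158), rho = 0.81 (p = 0.0120), 0.53 to 0.68 without 2 of those 3 tumors and 0.42 within groups (p = 0.380). Cd79b and Ccr7 had r = 0.70 (exact permutation p = 0.0419, adjusted p = 0.167), rho = 0.68 (p = 0.0503), 0.49 without the 2 farthest tumors and 0.45 within groups (p = 0.398). For Ms4a1 and Cd79b the tumors fell into a low set, the 3 SFOG tumors with SFSC replicate 1, and a high set of the other 5. Neither set is large enough for a correlation of its own, and the pooled r of these pairs includes the step between them.

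**Figure D2:**
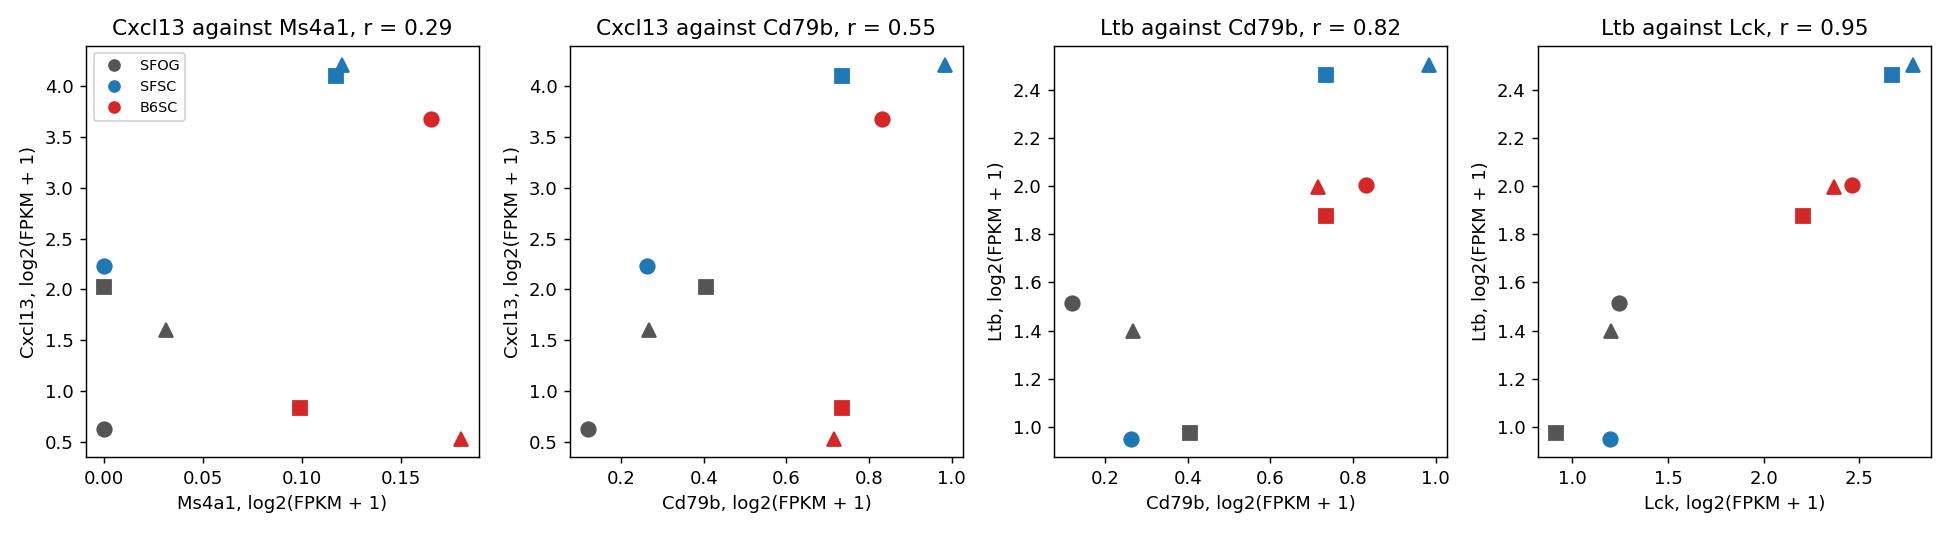
Log2(FPKM + 1) of Cxcl13 against Ms4a1 and Cd79b and of Ltb against Cd79b and Lck, 1 symbol per tumor (circle, square and triangle for replicates 1, 2 and 3), colored by group, with Pearson r over the 9 tumors. B6SC replicate 3 combines the highest Ms4a1 with the lowest Cxcl13, while Ltb is higher where Cd79b (r = 0.82) and Lck (r = 0.95) are higher.

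Ltb and Ccr7 are also T cell genes, and Ltb had its highest r with T cell genes. All 5 pairs of Ltb with the T cell genes Cd3e, Cd3d, Cd3g, Cd5 and Lck passed the threshold, of 20 T cell pairs in all, with r between 0.84 and 0.95 (adjusted p from 0.000551 to 0.0330, exact permutation tests, two-sided). On rank only Lck (adjusted p = 0.000992) and Cd3d (0.0308) passed by the exact permutation test, while Cd3e (0.0551), Cd3g (0.0856) and Cd5 (0.0856) did not. Lck, the kinase of the T cell receptor, gave r = 0.95 (exact permutation p = 2.76e-05, adjusted p = 0.000551) and rho = 0.98 (p = 4.96e-05), and 0.94 without SFOG replicate 2 and SFSC replicate 1. Within groups the r with Lck was 0.99 (exact permutation p = 0.00463, again the smallest possible, adjusted p = 0.0926), and 0 of the 20 pairs passed there, with 5 under an unadjusted p of 0.05. Like Ms4a1 and Cd79b, Lck split the tumors into the same sets of 4 and 5, which Cd79a and Cr2 did not. T cell genes and Cxcl13 had r of 0.41 to 0.67 and T cell genes and Ccr7 r of 0.48 to 0.63, and no such pair passed.

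Of 20 pairs with genes of mature dendritic cells, 0 passed on Pearson r, with 5 under an unadjusted p of 0.05. The nearest were Cd83 with Ltb (r = 0.83, exact permutation p = 0.00874, adjusted p = 0.0710; rho = 0.83, p = 0.00827; 0.79 without the 2 farthest tumors; 0.80 within groups, p = 0.0324) and Ccl22, a chemokine of these cells, with Ccr7 (r = 0.81, p = 0.00802, adjusted p = 0.0710; rho = 0.80, p = 0.0138; 0.66 without the 2 farthest tumors; 0.72 within groups, p = 0.125). Il12b and Ltb passed on rank, with rho = 0.95 (exact permutation p = 0.000353, adjusted p = 0.00705), and had r = 0.78 (p = 0.0106, adjusted p = 0.0710), 0.83 without the 2 farthest tumors and 0.70 within groups (p = 0.338). Fscn1, of the same list, went the other way with every lymphoid gene. Its r was -0.62 with Ltb, -0.56 with Cxcl13, -0.50 with Ccr7 and -0.35 with Ccl19, and none of these passed. Fscn1 stood at 79.0 to 133 FPKM, while Il12b stayed at or under 0.277 FPKM. Whether the B cell, T cell and dendritic cell pairs differ from each other was not tested.

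**Figure D3:**
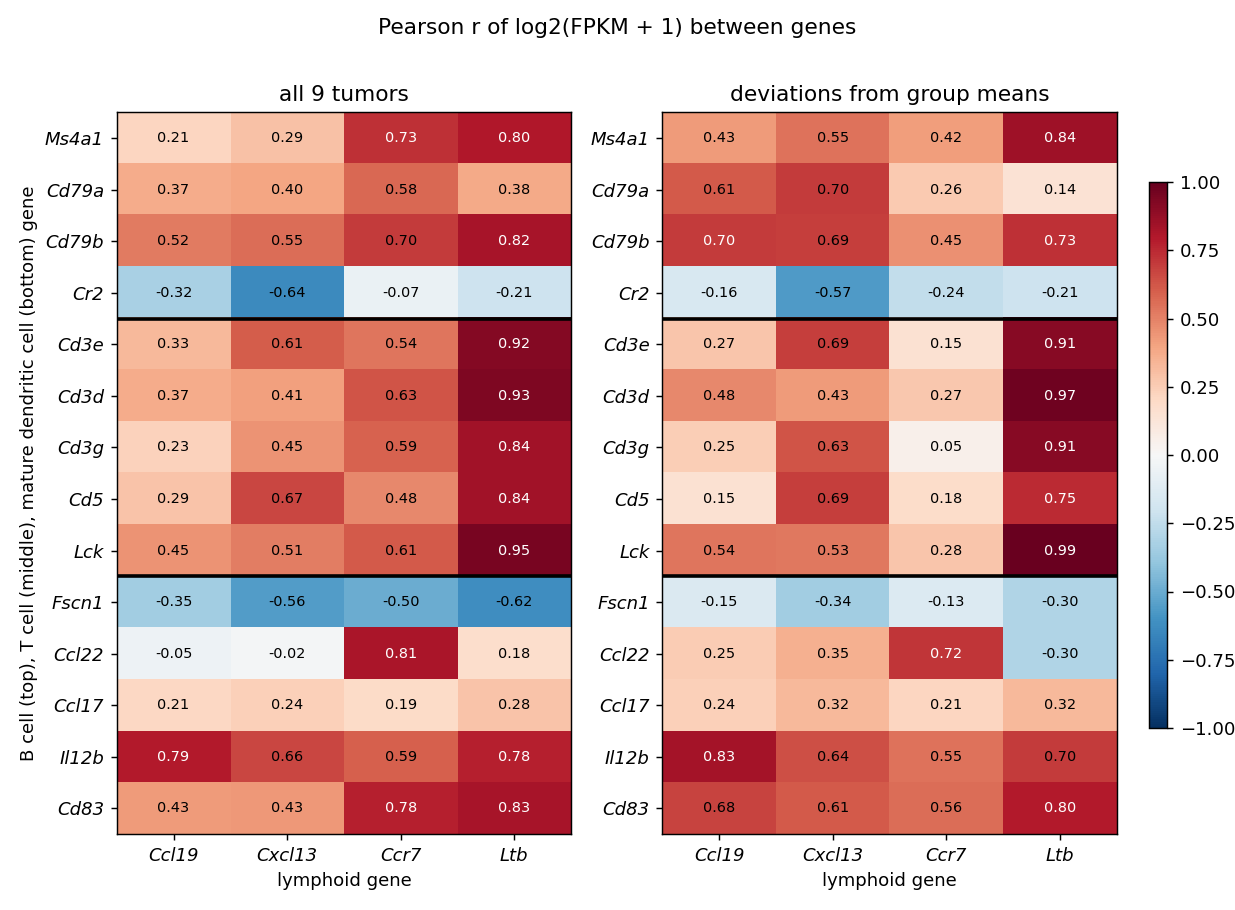
Pearson r of log2(FPKM + 1) between 14 genes of B cells, T cells and mature dendritic cells (rows) and the 4 lymphoid genes (columns), over all 9 tumors (left) and as deviations from the group means (right); red is positive and blue negative. The Ltb column is highest in the T cell rows (0.84 to 0.95 over all tumors), while the Cxcl13 column runs from -0.64 to 0.55 in the B cell rows.

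B cell transcripts were few beside T cell transcripts in every tumor. The summed FPKM of Ms4a1, Cd79a, Cd79b and Cr2 came to 0.234 to 0.492 in SFOG, 0.357 to 1.38 in SFSC and 0.983 to 1.38 in B6SC. The summed T cell genes (Cd3e, Cd3d, Cd3g, Cd5 and Lck) reached 2.94 to 4.39, 5.19 to 23.0 and 13.9 to 21.2 FPKM. The B cell sum was 16.7% of the T cell sum in SFOG replicate 2 and between 3.64% and 7.24% in the other 8 tumors. Both sums were higher in the same 5 adapted tumors than in the other 4 tumors, but their order within these sets differed: SFOG replicate 2 had the most B cell FPKM of the 4 and the fewest T cell FPKM of all 9, and SFSC replicate 2 had the most T cell FPKM and the fewest B cell FPKM of the 5. The part of either in the other was not tested.

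Among 12 T cell genes, all tested, 1 was called higher in SFSC (Cd3g, log2 fold change 1.50, limma adjusted p = 0.0393) and 3 in B6SC (Cd3g, Cd2 and Lef1, log2 fold changes 1.95, 1.35 and 2.08, adjusted p = 0.0170, 0.0471 and 0.0405), with 0 lower, where 2.36% and 2.42% of all genes tested were called higher. Their median log2 fold changes were 1.03 and 1.14. Lef1 did not follow Lck from tumor to tumor. It was highest in SFSC replicate 1, at 14.5 FPKM, where Lck was at 1.29 FPKM. In SFSC replicate 3, the tumor with the most Lck (5.87 FPKM), Lef1 was at 2.07 FPKM. The cells behind the Lef1 level were not tested. General leukocyte genes were called in 1 of 5 cases in SFSC (Cd52, log2 fold change 1.12, limma adjusted p = 0.0491) and 0 of 5 in B6SC. At an unadjusted p under 0.05 there were 4 of 5 in SFSC and 3 of 5 in B6SC (26.5% and 24.4% of all genes tested). Between the adapted groups 0 of the T cell and 0 of the leukocyte genes were called, nor was any under an unadjusted p of 0.05.

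In the wider lymphotoxin and TNF family, 2 of 13 tested genes were called higher and 0 lower in each adapted group against SFOG (2.36% and 2.42% of all genes tested were called higher). At an unadjusted p under 0.05 there were 5 of 13 in SFSC and 6 of 13 in B6SC (26.5% and 24.4% of all genes tested). The log2 fold change was positive for 10 and 12 of the 13, with medians of 0.27 in SFSC and 0.33 in B6SC. Between the adapted groups 0 of 13 were called, with 1 at an unadjusted p under 0.05 (6.27% of all genes tested). Tnfsf13b encodes BAFF, the survival factor of B cells. It stood at 1.03, 0.592 and 0.920 FPKM in SFOG, 1.69, 4.96 and 3.65 in SFSC and 3.83, 2.71 and 4.77 in B6SC, so that all 6 adapted tumors were above all 3 SFOG tumors. Its log2 fold change was 1.20 in SFSC (SE 0.29, limma adjusted p = 0.0410) and 1.35 in B6SC (SE 0.29, adjusted p = 0.0305). Tnfrsf13c, the BAFF receptor of B cells, stayed between 0.0207 and 0.119 FPKM. Tnfrsf14 (HVEM), a receptor for the lymphotoxin relative LIGHT, rose by log2 fold changes of 1.40 (SE 0.23, limma adjusted p = 0.0109) and 1.39 (SE 0.23, adjusted p = 0.00976). Ltbr, the lymphotoxin receptor, was at 31.5 to 42.9 FPKM with log2 fold changes of -0.06 and 0.09 (limma adjusted p = 0.774 and 0.703).

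Of 7 tested lymphoid chemokines and receptors, Cxcl13 and Ccr7 among them, 0 were called by limma in any comparison. In each adapted group against SFOG, 2 of the 7 had an unadjusted p under 0.05 (26.5% and 24.4% of all genes tested), and 0 between the adapted groups. Their median log2 fold changes were 0.44 and 0.60 against SFOG. Cxcr5, the CXCL13 receptor of B cells and follicular T cells, stayed at 0.0527 to 0.161 FPKM. Cxcl12, another stromal chemokine, was high in all tumors, at 98.7 to 308 FPKM.

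Ccl21a, the second CCR7 ligand, varied most from tumor to tumor. It stood at 1.79, 0.109 and 0.183 FPKM in SFOG, at 0, 0.899 and 10.5 in SFSC and at 17.6, 0 and 1.77 in B6SC. Its log2 fold change was 0.86 (SE 1.14, limma adjusted p = 0.663) in SFSC and 1.27 (SE 1.14, adjusted p = 0.545) in B6SC. The 2 high tumors, SFSC replicate 3 and B6SC replicate 1, were the muscle-rich ones, and with SFSC replicate 2 they were also the 3 highest in Cxcl13. Ccl21b was listed at 0 throughout, and reads of the nearly identical Ccl21 copies may have been split between them.

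HEV genes were weak. Glycam1, an HEV sialomucin that binds L-selectin, was above 0 only in SFSC replicate 2 (0.0746 FPKM) and B6SC replicate 1 (0.155 FPKM), and Madcam1 only in SFSC replicate 2 (0.0259 FPKM). Chst4, a sulfotransferase of HEVs, reached 0.770 FPKM in B6SC replicate 1 and at most 0.0449 elsewhere. Glycam1 rested on 1 fragment in SFSC replicate 2 and 2 in B6SC replicate 1, and a 0 elsewhere allowed up to 0.254 to 0.318 FPKM, so no order of the tumors can be read from it. B6SC replicate 1 was highest in Ccl21a, Chst4 and Cd79a and ranked 2 of 9 in Ms4a1 and Cd79b and 3 of 9 in Cxcl13. Fut7, a fucosyltransferase of leukocytes and HEVs, was 0.11, 0.181 and 0.0738 FPKM in SFOG, 0.354, 0.927 and 0.660 in SFSC and 0.568, 0.722 and 0.588 in B6SC, with both adapted groups entirely above SFOG (exact permutation test, two-sided, p = 0.1 for each). Of the 4 HEV and lymph node stroma genes tested (Pdpn, Vcam1, Icam1 and Enpp2), 0 were called by limma. At an unadjusted p under 0.05 there were 0 in SFSC and 3 in B6SC against SFOG and 1 between the adapted groups. Of all genes tested, 26.5%, 24.4% and 6.27% were below that p in the same order. The 1 gene between the adapted groups was Pdpn, podoplanin of stromal and lymphatic cells. It had a log2 fold change of 1.73 (SE 0.40, limma adjusted p = 0.490), with all B6SC tumors above all SFSC tumors.

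The genes of neighboring tissue that moved with Ccl21a were read beside it. Mmrn1, a gene of lymphatic endothelium, was at 1.55 FPKM in SFSC replicate 3 and 1.93 in B6SC replicate 1, against at most 0.151 elsewhere. Prox1, the lymphatic transcription factor that is also found in other tissues, was at 0.164 and 0.204 FPKM in the same tumors and at most 0.0625 elsewhere. Adipoq, the fat cell hormone, was at 12.3 FPKM in SFSC replicate 3, 2.17 in B6SC replicate 1 and 1.93 in SFSC replicate 2, against at most 0.551 elsewhere. These 3 genes were picked after their values were seen, and the part of lymphatic vessels, fat and muscle in the Ccl21a and Cxcl13 levels was not tested. Genes of the thymus, another lymphoid organ near the thyroid, were weak: all 8 were under 1 FPKM in every tumor and summed to at most 0.486 FPKM. Prss16 reached the highest level of them, at 0 to 0.429 FPKM.

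**Figure D4:**
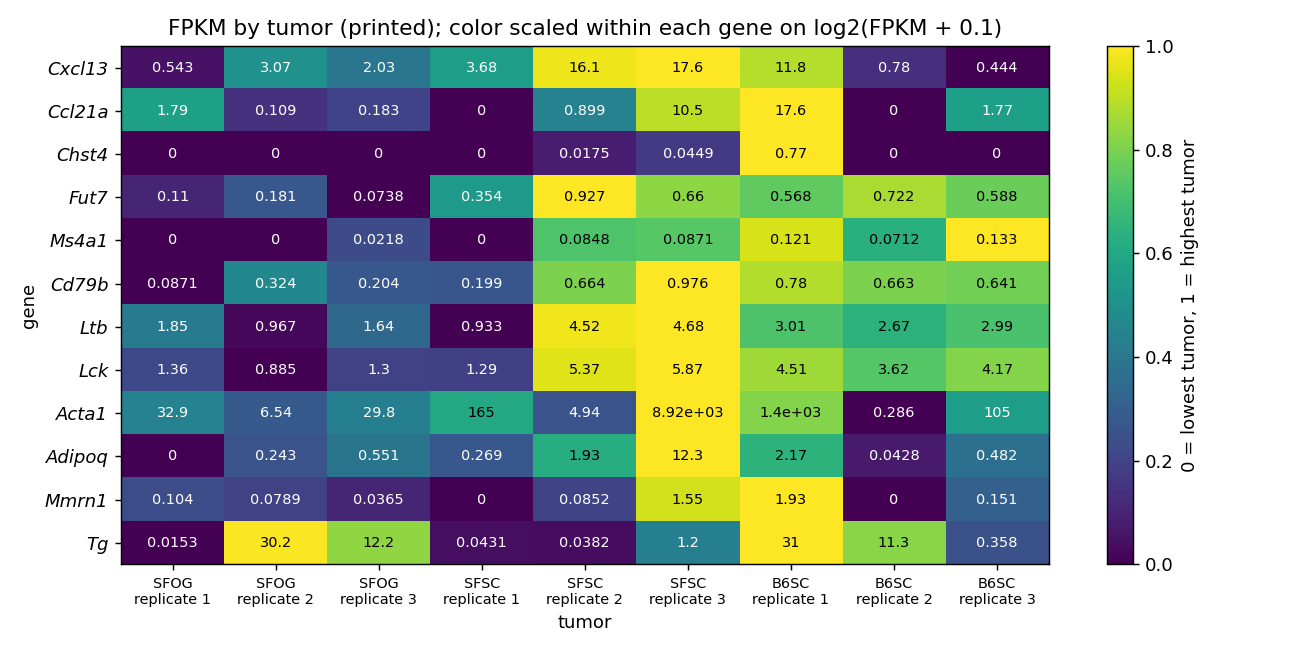
FPKM (printed) of lymphoid chemokine, HEV, B cell, T cell, muscle, fat, lymphatic and thyroid genes in each of the 9 tumors; the color runs from the lowest to the highest tumor of each gene on log2(FPKM + 0.1). Ccl21a, Chst4 and Mmrn1 peak in SFSC replicate 3 or B6SC replicate 1, the tumors with the most Acta1, whereas Ms4a1, Ltb and Lck are high in 5 adapted tumors.

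Without the 2 muscle-rich tumors, 0 of the 3 tested genes were called in any comparison, Cxcl13 in B6SC was lower than in SFOG by a log2 fold change of -0.74, and 0 of the B cell pairs and 4 of the T cell pairs passed.

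The genes whose levels over the 9 tumors were most like each of these genes were sought among all 10263 genes tested, by Pearson r of log2(FPKM + 1). For Ms4a1 they were Klrc1 (r = 0.98), an NK cell receptor gene, Cd83 (0.97) and Crlf2 (0.96). For Cd79b they were Rab19 (r = 0.94), Serpinb9 (0.94), which encodes a granzyme B inhibitor, and Ptprcap (0.93), which encodes a lymphocyte protein bound to CD45. For Cd79a they were Vamp1, Ptp4a3 and Ablim1 (r = 0.84 each), and for Cr2 Azi2 (0.92), Ercc6 (0.90) and Gnl3 (0.89). For Cxcl13 they were Rasl11b (r = 0.93), Siglece (0.92), a myeloid receptor gene, and Sla (0.92). For Ccr7 they were Ly6a (r = 0.91), Plvap (0.90), a gene of fenestrated endothelium, and Slco5a1 (0.89). For Ltb they were Lck (r = 0.95), Klrd1 (0.95), of NK and CD8 T cells, and Lgi2 (0.93). Ccl19, with 1 tumor above 0, was nearest to Rnf115, Fkbp14 and Btg2 (r = 0.98, 0.98 and 0.97). The highest of many correlations is high by selection, and these are descriptions over 9 tumors.

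Against the whole table, the B cell genes were among the weaker genes detected. Of 14520 genes above 0 in any tumor, 14.7% had a lower mean than Ms4a1, 20.1% than Cd79a, 25.8% than Cd79b, 13.7% than Cr2 and 5.88% than Ccl19. The share was 31.1% for Ccr7, 36.3% for Ltb and 47.3% for Cxcl13, the strongest of the 8 genes.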

How the data were processed

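RNA of 9 mouse tumors was analysed, grouped by the sample labels. The authors sequenced paired-end reads, aligned them to mm10 with HISAT2 and deposited FPKM values made with Cuffnorm (FastQC and Cuffdiff are also in the submitters' processing notes). The gene annotation and the Cuffnorm scaling are not given in the sources used here. The organism was taken as mouse from that build and the study. A mouse genome was not used here, so no coordinates or sequences are given. Mzb1, Btk, Fcmr, Jchain, Igj, Ighm, Igkc, Gcsam, Fdcsp and Ccl21c were not analysed here, so 16 pairs of B cell and lymphoid genes replaced the planned 20. The genes and lists were chosen with earlier results of these data known.

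FPKM are not counts, so limma 3.58.1 in R 4.3.3 (eBayes with a mean-variance trend) was fitted to log2(FPKM + 1), a scale that understates the change of weak genes, for 10263 genes that reached 1 FPKM in 3 or more tumors, in one model of 3 groups. Genes named are the 9 genes, the called or defining genes of each list and, per gene, the 3 with the highest r. Single values and pairs used exact permutation tests (Python 3.11.15, scipy 1.17.1). Gene lists were described by counts and medians. The fit was tested on simulated data. Absolute depth is unknown. Fragments behind weak values were read from the steps of FPKM, with depths relative to SFOG replicate 1 from 304 to 467 weak genes, of which 79 to 136 lay on the main step, and a value counted as whole within 0.15 of a step. Same-numbered tumors are different animals. Alternatives were another pseudocount (0.1), filter, scaling or threshold, unlogged values, only the groups compared, a replicate block, group deviations, each tumor left out in turn and, chosen after seeing the data, leaving out the 2 muscle-rich tumors. Some genes of the lists are not reported here.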

Additional observations from a re-analysis of the deposited data

How the results depend on the processing

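No setting other than leaving out a tumor called any of the 3 tested genes. Leaving out 1 tumor at a time gave 0 to 1 called genes for SFSC against SFOG (1 being Ltb without SFSC replicate 1) and 0 to 0 for the other comparisons. The Ltb difference between the adapted groups, -0.02, was 0.0738 with a pseudocount of 0.1, 0.23 without the 2 muscle-rich tumors and -0.53 to 0.25 with 1 tumor left out. The Cxcl13 difference of B6SC from SFOG, 0.26, was -0.74 without the 2 muscle-rich tumors and -0.74 to 0.84 with 1 tumor left out, and it was -0.13 without SFOG replicate 1. The T cell pairs past the threshold, 5 of 20, numbered 0 as deviations from the group means, where a single pair cannot pass, 7 with unlogged FPKM and 3 to 6 with 1 tumor left out (3 without SFOG replicate 1 or 2 or B6SC replicate 3). Mature dendritic cell pairs numbered 0 to 1 (1 without each SFSC tumor in turn and without B6SC replicate 1) and B cell pairs 0 to 0. Over all alternatives, 183 values for single genes kept their direction and side of the threshold, 8 reversed direction and 1 crossed the threshold. The 183 include permutation tests of the weaker genes, which cannot give a p under 0.1 and so could not cross it. For counts, 87 were equal or close to those reported, the 7 T cell pairs with unlogged FPKM among them, and 9 moved further.

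With the replicate block 0 of the 3 genes were called in each comparison, with limma adjusted p of 0.247 for Cxcl13 in SFSC, 0.141 for Ccr7 in B6SC and 0.367 for Ltb in SFSC against SFOG. Deviations of same-numbered tumors correlated at -0.33 to 0.03, 0.07 to 0.30 and -0.39 to 0.61 in the 3 pairs of groups, with both signs among them. Whether same-numbered tumors shared a batch was not tested. With 3 tumors a group and few fragments, differences of weak B cell genes smaller than their counting intervals were not detectable.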

Other observations

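Of 11 plasma cell and 6 germinal centre genes listed, 3 of each were tested. Of 3 tested plasma cell genes (Prdm1, Xbp1 and Sdc1, which other cells also use), 0 were called by limma in any comparison, with 0, 1 and 0 at an unadjusted p under 0.05 for SFSC and B6SC against SFOG and between the adapted groups. Of all genes tested, 26.5%, 24.4% and 6.27% were below that p in the same order. Tnfrsf17, the plasma cell receptor BCMA, stayed at or under 0.133 FPKM. Derl3, also of the plasma cell list, reached 1.11 FPKM in SFSC replicate 2 and at most 0.454 FPKM elsewhere. Of 3 tested germinal centre genes (Bcl6, S1pr2 and Mybl1), 0 were called, with 1, 1 and 0 at an unadjusted p under 0.05. The gene was S1pr2 in both adapted groups, and all adapted tumors were below all SFOG tumors. Its log2 fold change was -0.54 in SFSC (limma adjusted p = 0.0374) and -0.57 in B6SC (adjusted p = 0.0356), short of the fold change threshold. Of 7 tested mature dendritic cell genes 0 were called, with median log2 fold changes of 0.14 and 0.58 against SFOG. At an unadjusted p under 0.05 there were 3, 5 and 2 of the 7, where 26.5%, 24.4% and 6.27% of all genes tested were below it. Among them Fscn1 was lower in SFSC and B6SC than in SFOG, by log2 fold changes of -0.49 and -0.39 (limma adjusted p = 0.0326 and 0.0702). The others were higher in each comparison.

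Ciita, the activator of MHC class II genes in B cells and other antigen-presenting cells, was the 1 of 2 tested genes of the B cell transcription factor list that was called. It stood at 1.12, 0.749 and 0.971 FPKM in SFOG, 2.60, 7.47 and 5.20 in SFSC and 2.34, 1.63 and 2.33 in B6SC. Its log2 fold change against SFOG was 1.56 in SFSC (limma adjusted p = 0.0159) and 0.67 in B6SC (adjusted p = 0.193), and -0.90 between the adapted groups (adjusted p = 0.632). In SFSC against SFOG 2.36% of all genes tested were called higher. Neither of the 2 genes was called in the other comparisons, where 1 had an unadjusted p under 0.05 in each (24.4% and 6.27% of all genes tested).

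The ratio of Ltb to Lck in FPKM was 1.09 to 1.36 in the 3 SFOG tumors and 0.667 to 0.841 in the 6 adapted tumors, a difference that was noticed in the data and not tested.

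Tg, the thyroid hormone precursor and the 1 tested gene of 7 thyroid and parathyroid genes, ran from 0.0153 to 31.0 FPKM and was not called by limma, with 0 at an unadjusted p under 0.05. It was above 10 FPKM in SFOG replicates 2 and 3 and B6SC replicates 1 and 2, and at most 1.20 FPKM elsewhere. Of 17 tested skeletal muscle genes 0 were called, with 0 at an unadjusted p under 0.05 in any comparison.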
